A study of Mus musculus with 12 samples.

Results

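Of 135558 DNase I hypersensitive sites (DHSs) that lay away from promoters in mouse haematopoietic progenitors and early T cell precursors, 4608 (3.40%) carried a peak in every one of 12 DNase-seq libraries. These sites were selected on presence alone. The peaks of all libraries on chromosomes 1 to 19 and X were merged wherever they overlapped by 1 bp or more, which gave 170207 consensus DHSs, and a DHS was kept when each library had a peak in it and its midpoint was more than 1 kb from the start of every protein-coding transcript. A further 8460 DHSs open in all 12 libraries lay within 1 kb of such a start and are called promoter DHSs below. Cells of C57BL/6J mice made up 5 groups, with 3 libraries of LSK cells (Lin-SCA1+KIT+ stem and progenitor cells freshly isolated from marrow), 2 of DN1 (KIT++CD44+CD25-), 2 of DN2a (KIT++CD44+CD25+), 2 of DN2b (KIT+CD44loCD25+) and 3 of an IgG group, in which LSK cells were cultured on human IgG in place of a Notch ligand. The DN cells were sorted from LSK cells cultured on the immobilized Notch ligand Delta1. All cultures held serum and cytokines, while the LSK libraries came from uncultured cells. Between LSK and the DN groups, culture thus cannot be told apart from ligand or stage. The paper describes no sort of the IgG cells. IL-7 was added only to the cultures that gave the DN2 cells, so stage and IL-7 cannot be told apart between DN1 and either DN2 group. Cultures are models of thymic stages without a thymus, and DN1, DN2a and DN2b libraries may share an LSK isolate, which the labels do not resolve, so the p-values measure only the spread between these libraries.

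The labels were checked at the promoters of surface markers. Kit, Cd44 and Ptprc (CD45) had a promoter peak in all 12 libraries, and Il2ra, which encodes CD25, had one in 2 of 2 DN2a and 2 of 2 DN2b libraries and in 0 libraries of the other groups. Ly6a, which encodes SCA1, had no promoter peak in any group. Of the genes named, only Il2ra differed between groups. The check thus cannot tell LSK, DN1 and IgG apart, or DN2a from DN2b. Peak lists held 32977 to 111657 peaks, all 150 bp wide, and the 3 IgG lists were the shortest. Read depth is unknown. Each peak carries a whole-number score of up to 150 whose meaning is not stated, so the score was used only as a rank. The score percentile of a site is its place among the 13068 DHSs open in all 12 libraries, ranked within 1 library, from 0 (lowest) to 100 (highest). A site at a percentile near 0 still holds a peak.

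Distal DHSs mark enhancers, insulators and other regulatory elements bound by transcription factors. Most distal elements are used in few cell types, whereas many promoters are open in nearly all cells. A well-known group of broadly open distal sites is bound by CTCF, a zinc finger protein that holds chromatin loops together with cohesin. In the path from the progenitor to the T cell precursor, factors such as PU.1, GATA and RUNX proteins and the E protein E2A act at lineage enhancers, while Notch ligand starts the T cell programme.

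Sequences of 150 bp centred on the mean peak position serve as examples. They were picked by rank, by change or by gene, so they need not be typical of these sites. They are given for the plus strand of GRCm38 (mm10), 5′ to 3′, under the gene with the nearest protein-coding start. The first 3 are distal sites with a CTCF pattern (CCNNNAGNNGGC, in capitals, on either strand) and are among the 6 such sites, outside crowded stretches, whose lowest percentile over the libraries was highest.
Ccne1 (chr7:38084984-38085133): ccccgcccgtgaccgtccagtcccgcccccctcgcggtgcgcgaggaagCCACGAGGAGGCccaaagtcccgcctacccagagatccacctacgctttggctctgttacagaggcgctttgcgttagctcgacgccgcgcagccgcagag
Tspoap1 (chr11:87749564-87749713): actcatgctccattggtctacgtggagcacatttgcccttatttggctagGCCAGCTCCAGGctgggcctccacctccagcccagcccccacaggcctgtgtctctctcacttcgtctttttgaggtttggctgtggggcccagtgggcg
C87436 (chr6:86472290-86472439): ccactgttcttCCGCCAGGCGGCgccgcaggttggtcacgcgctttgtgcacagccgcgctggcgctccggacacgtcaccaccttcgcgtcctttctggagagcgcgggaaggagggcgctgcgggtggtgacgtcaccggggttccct

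The next set holds sites that changed most between LSK and another group, shown because they carry the results on Delta1 and IgG culture given further on. Capitals mark a match, on either strand, to any of 10 searched patterns. Beside CTCF, these were GATA (written AGATAA), PU.1 (written GAGGAAGT), RUNX (written TGTGGTT), AP-1 (written TGANTCA), E2A (written CAGCTG), SP/KLF (written GGGCGGG), ETS (written CCGGAAG), TCF1 (written CTTTGAT) and NRF1 (written GCGCATGC). The ETS and PU.1 patterns share the letters GGAAG. Of the following, Agbl5 holds CTCF and GATA matches, Gfod1 PU.1, Vcan RUNX and AP-1, Cblc E2A and SP/KLF, and Nabp1 E2A.
Agbl5 (chr5:30887415-30887564): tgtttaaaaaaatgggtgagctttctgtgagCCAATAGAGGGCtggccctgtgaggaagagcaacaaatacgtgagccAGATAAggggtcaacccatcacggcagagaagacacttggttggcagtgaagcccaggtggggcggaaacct
Gfod1 (chr13:43250747-43250896): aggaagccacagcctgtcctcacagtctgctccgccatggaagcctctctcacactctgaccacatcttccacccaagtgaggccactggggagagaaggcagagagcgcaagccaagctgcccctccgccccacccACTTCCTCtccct
Vcan (chr13:89889182-89889331): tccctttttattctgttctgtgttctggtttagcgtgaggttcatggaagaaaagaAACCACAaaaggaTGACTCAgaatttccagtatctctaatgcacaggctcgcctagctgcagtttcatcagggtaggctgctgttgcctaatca
Cblc (chr7:19790050-19790199): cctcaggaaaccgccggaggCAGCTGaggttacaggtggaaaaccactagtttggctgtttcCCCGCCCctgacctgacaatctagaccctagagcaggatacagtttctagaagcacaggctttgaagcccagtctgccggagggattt
Nabp1 (chr1:51585052-51585201): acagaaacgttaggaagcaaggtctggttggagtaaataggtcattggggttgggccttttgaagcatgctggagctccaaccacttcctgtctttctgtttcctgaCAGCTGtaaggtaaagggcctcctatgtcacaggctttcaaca

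The sites near 3 further genes were added after their values were seen, because the genes are at the centre of the stage comparisons, the CD25 gene Il2ra, the repressor gene Gfi1 and the stem cell factor gene Hlf. The Hlf sequence holds the NRF1 pattern (in capitals), and the others hold none of the 10 patterns.
Il2ra (chr2:11637204-11637353): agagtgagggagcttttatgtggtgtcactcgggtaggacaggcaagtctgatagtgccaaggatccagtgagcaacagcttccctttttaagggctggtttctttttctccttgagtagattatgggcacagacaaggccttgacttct
Gfi1 (chr5:107749677-107749826): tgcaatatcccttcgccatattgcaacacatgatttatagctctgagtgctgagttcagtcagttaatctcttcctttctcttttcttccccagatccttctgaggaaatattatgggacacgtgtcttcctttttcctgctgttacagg
Hlf (chr11:90418030-90418179): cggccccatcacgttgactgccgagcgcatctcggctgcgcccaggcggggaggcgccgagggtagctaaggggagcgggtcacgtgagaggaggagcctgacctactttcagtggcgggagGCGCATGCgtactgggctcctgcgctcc

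Distal sites were rarely open throughout. The share of distal DHSs with a peak in 1 library only was 34.4%, and the share in all 12 was 3.40%, against 24.4% of promoter DHSs. A peak was missing in only 1 library at 3140 distal DHSs, and at 2255 of these (71.8%) that library was from the IgG group, the group with the shortest lists. The part that list length plays in this was not tested. When each list was reduced to its 32952 highest-scoring peaks, the length of the shortest, 3058 distal DHSs were open in all 12. At the 1 kb border, 56 distal DHSs open in all 12 lay up to 100 bp outside it and 81 promoter DHSs up to 100 bp inside it. Presence in the 12 lists chose the sites, so these counts are a description and carry no test.

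**Figure D1:**
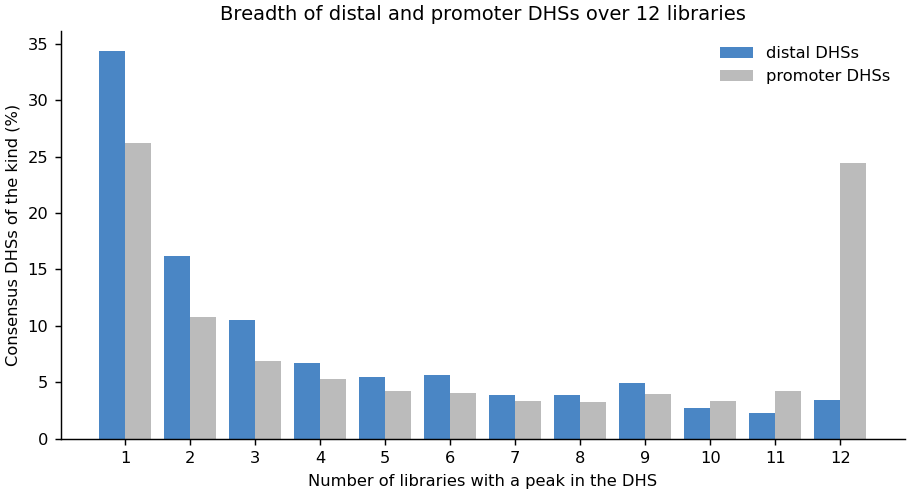
Share of distal (blue) and promoter (grey) consensus DHSs, in percent of all DHSs of that kind, by the number of libraries with a peak, from 1 to 12. Distal DHSs fall from 34.4% in 1 library to 3.40% in 12, while promoter DHSs have a second maximum of 24.4% at 12.

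More of the 4608 sites lay between genes than in introns. There were 2101 between genes (45.6%, 95% Wilson interval 44.2% to 47.0%) and 1801 in introns of protein-coding genes (39.1%, 37.7% to 40.5%), whereas 46.5% of the distal DHSs open in fewer libraries were intronic. A further 279 lay in introns of non-coding genes, 234 in exons of non-coding transcripts, 106 in untranslated regions and 87 in coding exons. Intervals here cover counting error only, and sites are not replicates. The sites were nearer to genes than other distal DHSs, with a median of 16.1 kb to the nearest protein-coding start against 24.8 kb. Only 2.19% were over 200 kb away, against 7.24% of other distal DHSs. They lay on both sides of that start, 2205 upstream and 2403 downstream. A start of a non-coding transcript was within 1 kb of 677 of them (14.7%), against 7.25% of the other distal DHSs.

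Base composition stood between that of other distal DHSs and that of promoters. Median GC content in 150 bp was 52.7%, against 48.0% in distal DHSs open in fewer libraries and 64.7% in promoter DHSs open in all 12. The observed/expected CpG ratio had a median of 0.310, against 0.193 and 0.847. A ratio over 0.6, of the kind found in CpG islands, was present at 883 sites (19.2%) and at 5.34% of the distal DHSs open in fewer libraries.

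Among the sequence patterns, that of CTCF was the most frequent. It occurred in 934 sites (20.3%, 19.1% to 21.5%), against 6.58% of distal DHSs open in 1 library, 10.04% of those open in 2 to 5 and 9.21% of promoter DHSs open in all 12. The share did not keep growing with breadth, since distal DHSs open in 6 to 11 libraries stood at 21.5% (21.04% to 21.94%). The GATA pattern went the other way, from 10.6% of distal DHSs open in 1 library to 4.97% of those open in 12. SP/KLF, a pattern of CpG-rich promoters, was found in 8.40% of the sites, against 1.85% of distal DHSs open in 1 library and 40.9% of promoter DHSs. PU.1 stood at 9.79% and AP-1 at 11.9%, above the 5.26% and 8.10% in 1 library. RUNX was found in 12.2% and E2A in 12.8%, against 12.3% and 12.02% of the distal DHSs open in fewer than 12 libraries. ETS was found in 3.73% and NRF1 in 1.22%, against 1.32% and 0.233%, and TCF1 in 1.28%, against 3.21%. A match is a run of letters and does not show that the factor was bound. Base composition also differs between these classes of DHSs, and its part in the shares was not tested.

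**Figure D2:**
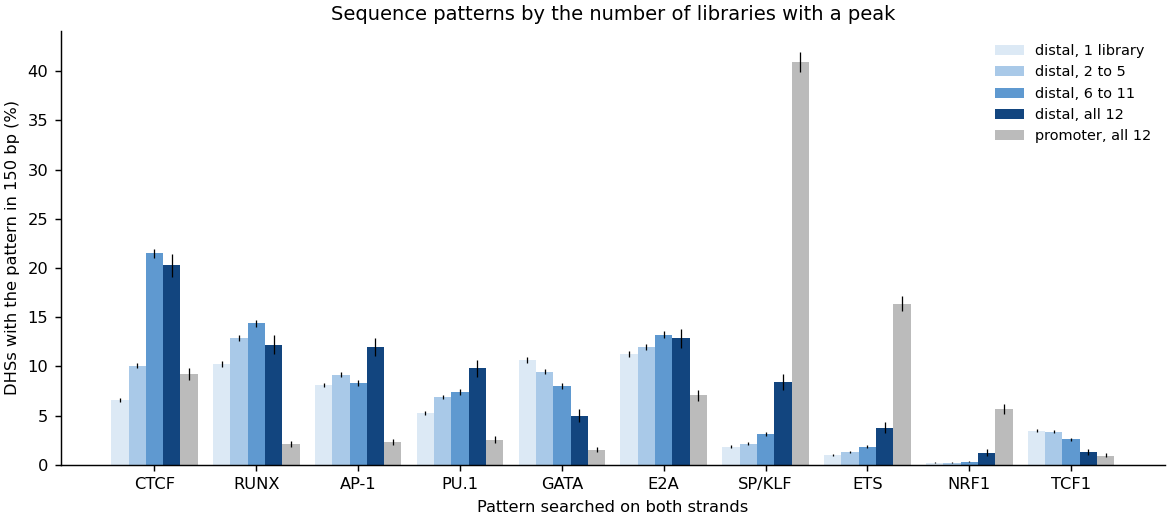
Percent of DHSs that hold each of 10 patterns in 150 bp on either strand, for distal DHSs by the number of libraries with a peak and for promoter DHSs open in all 12; error bars are 95% Wilson intervals. The CTCF pattern rises from 6.58% in 1 library to 20.3% in distal DHSs open in all 12, and SP/KLF stands at 40.9% in promoter DHSs.

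The sites were thinly spread. The median gap between neighbours was 121.5 kb (quartiles 36.7 kb and 391 kb) and the longest gap 28.1 Mb, with 21.7% of the sites within 10 kb of another. Mean density was 1.75 sites per Mb. It was highest on chromosome 11, with 474 sites or 3.88 per Mb, and lowest on the X chromosome, with 67 sites or 0.392 per Mb, and these chromosomes also had the most (6.27) and the fewest (1.23) promoter DHSs open in all 12 per Mb. The nearest starts belonged to 3349 genes, 2489 of which had 1 site only. The peak midpoints of the 12 libraries spanned a median of 60 bp within a site, the same as in promoter DHSs.

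A few stretches held many sites. The most crowded was chr11:3104837-3199926, where 32 sites stood in 95.1 kb at Sfi1, a centriolar protein gene, and Eif4enif1. Sites packed this closely are not independent, and the part of read placement in this stretch was not tested. Chains of 12 sites with gaps of 50 kb or less were found at Ptma (prothymosin alpha), on chr1:86430077-86532646, and around Aurkb and Per1, on chr11:68939737-69124506. On chr17:39845777-39848706, 7 sites stood within 2.93 kb, and the 4 of them with the highest scores had percentiles that round to 100 in every library. They overlap annotated non-coding RNA genes, among them Gm26917, Gm42418 and an rRNA gene (CT010467.1). Ribosomal RNA genes exist in many copies, and the part that placement of reads with several matches plays in these ranks was not tested.

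Some of the closely spaced sites stood at genes for small RNAs. Within 250 bp of a tRNA gene, as RefSeq annotates them, stood 87 sites (1.89%, 1.53% to 2.32%), against 0.266% of distal DHSs open in 6 to 11 libraries and 0.0622% of those open in 1. They touched 98 of 403 annotated tRNA genes, and 88.5% lay between genes. Of the 12 sites around Aurkb and Per1, 7 were near a tRNA gene, as were 5 of 7 in a chain at a histone gene cluster on chr13:21935417-22051166. Near spliceosomal and other snRNA genes stood 35 sites (0.760%), against 0.0665% of the distal DHSs open in 6 to 11 libraries. The 1 kb rule looks only at protein-coding starts, and 29 promoter DHSs open in all 12 (0.343%) were also near a tRNA gene and 9 near an snRNA gene. The comparison with small RNA genes was added after the data were seen.

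Within each library the sites ranked high in the whole peak list but low among DHSs open everywhere. In the whole list their median percentile was 78.9 ± 1.85 for the 3 LSK libraries and 63.5 ± 2.92 for the 3 IgG libraries (mean ± SD). The pairs of Delta1-cultured libraries gave 84.4 ± 4.43 (DN1), 77.5 ± 3.55 (DN2a) and 78.7 ± 8.36 (DN2b). Among the 13068 shared DHSs the median of the distal sites was between 26.6 (DN2b) and 34.5 (IgG), and that of promoter DHSs between 58.7 (DN1) and 60.6 (DN2b). The lowest of the 12 percentiles was above 90 at 21 distal sites and at 287 promoter DHSs. The highest of the 12 was below 25 at 428 distal sites, so these ranked in the lower part of the shared DHSs in every library.

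Openness in every library did not mean a constant score. The range over the 12 libraries had a median of 42.9 points (quartiles 29.6 and 58.1), and 1045 sites (22.7%) ranged over more than 60 points. An F test over the 5 groups (limma, adjusted p under 0.05 over all 13068 DHSs) called 2467 of the 4608 sites (53.5%), where 40.2% of all DHSs tested were called. Some sequence patterns differed in share between called sites and the rest. The CTCF pattern was in 10.6% (9.47% to 11.9%) of called sites and in 31.4% (29.5% to 33.4%) of the others, RUNX in 15.4% and 8.50%, and PU.1 in 12.8% and 6.31%, while E2A was in 12.97% and 12.70%. Score level moved with this division. Of the 1152 sites with the lowest mean percentile, 39.3% held the CTCF pattern and 29.1% were called, while of the 1152 with the highest 6.42% held it and 60.7% were called. The part of score level in the difference was not tested.

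The first comparison asks what changed from LSK to DN1, the step made on Delta1 without IL-7. Culture with serum and cytokines is part of this step, so its changes cannot be told apart from those of Delta1. Of the 4608 sites, 411 rose (8.92%, where 5.19% of all DHSs open in 12 rose) and 276 fell (5.99%, where 4.27% of all fell). The number called was 687 in all, 289 without DN1 replicate 1 and 205 without DN1 replicate 2, and whole-list ranks gave 118 rises and 24 falls. In bulk libraries, fewer cells with an open site and less opening per cell cannot be told apart. The largest rise was in an intron of Ergic1, a gene of the secretory pathway, at chr17:26605677-26606046, 4.54 kb from its start. Its percentiles were 3.17, 1.06 and 1.86 in LSK and 83.1 and 84.6 in DN1. The groups were far apart, and the difference was 81.8 points (SE 8.99, adjusted p = 0.000149). Percentiles then lay between 52.7 and 72.5 in the DN2 libraries and between 20.8 and 48.0 in IgG, all above LSK.

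A site in a coding exon of Clec4d, a C-type lectin receptor of myeloid cells, also rose (chr6:123266997-123267226). It stood at 2.67, 17.9 and 5.36 in LSK and at 87.7 and 89.3 in DN1, a rise of 79.9 points (SE 8.17, adjusted p = 0.000112). Its IgG values were 36.3, 46.1 and 32.6, all above LSK. The intronic site of Cdk6, the cell cycle kinase gene, at chr5:3497657-3497886, went from 10.3, 11.7 and 7.49 to 90.8 and 87.5 (difference 79.3, SE 12.1, adjusted p = 0.000895), and its IgG values were spread over 30.4, 72.4 and 91.0. Among the falls, a site in an Aldh2 intron (an aldehyde dehydrogenase gene, chr5:121584237-121584506) had 81.1, 61.8 and 71.5 in LSK and 11.1 and 3.51 in DN1. The difference was -64.2 (SE 8.34, adjusted p = 0.000347), and the site was high again in IgG (72.0, 80.9 and 61.3). RUNX patterns were found in 23.1% (19.3% to 27.4%) of the sites that rose, 7.97% of those that fell and 11.3% of those not called, and CTCF patterns in 3.41%, 15.2% and 22.4%.

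The Il2ra site shows this step at a T cell gene. It lies 5.53 kb upstream of the start of Il2ra, at chr2:11637177-11637386, and is open in all 12 libraries, although the Il2ra promoter had a peak only in DN2 cells. Percentiles were 26.9, 10.7 and 9.21 in LSK, 11.98, 16.9 and 14.7 in IgG, 71.6 and 75.9 in DN1, 73.9 and 80.9 in DN2a, and 82.7 and 83.3 in DN2b. Every Delta1-cultured library was thus above every LSK and IgG library. The rise from LSK to DN1 was 58.2 points (SE 8.09, adjusted p = 0.000476), and DN1 was 59.2 points above IgG (SE 8.09, adjusted p = 0.000102). DN1 cells were sorted as CD25-. The site ranked high in them all the same.

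**Figure D3:**
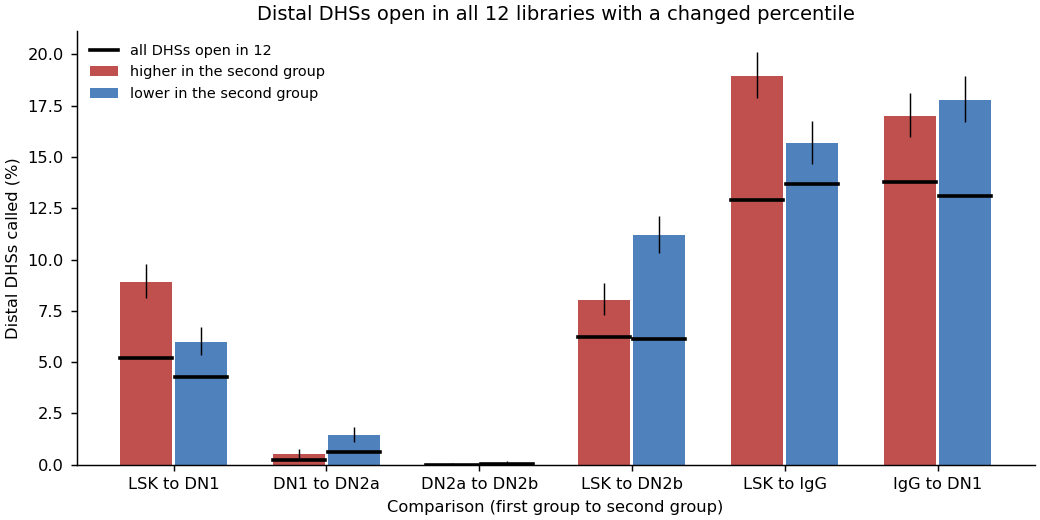
Percent of the 4608 distal DHSs called higher (red) or lower (blue) in the second group of each comparison (limma, adjusted p under 0.05), with 95% Wilson intervals; black lines give the percent of all 13068 DHSs open in 12 libraries. LSK to IgG reaches 18.97% higher, and DN2a to DN2b has 0 higher and 2 sites lower.

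Between DN1 and DN2a, 24 sites rose (0.521%, where 0.237% of all DHSs rose) and 66 fell (1.43%, where 0.605% fell). The count rests on single libraries, and without DN2a replicate 2 it was 2 sites in all, without DN1 replicate 2 it was 5, and without IgG replicate 3, which takes no direct part, 142. The excess of falls was absent at equal list lengths (15 rose and 14 fell) and without DN1 replicate 1 (8 and 8) or DN2a replicate 1 (10 and 10), and whole-list ranks left 2 calls. In an intron of Nedd9, which encodes a scaffold protein of adhesion signalling, the site at chr13:41381457-41381686 had 26.1 and 35.99 in DN1 and 84.9 and 92.4 in DN2a (difference 57.6, SE 8.53, adjusted p = 0.00976). It was low in LSK (9.39, 12.9 and 1.01) and IgG (11.98, 14.9 and 24.4). A site 151.4 kb from the start of Maf, a bZIP transcription factor gene, fell from 78.2 and 83.4 to 18.95 and 9.29 (chr8:115555557-115555766, difference -66.7, SE 11.01, adjusted p = 0.0107). It then ranked at the very bottom in DN2b, with 0.360 and 0.348. The intronic site of Kcnq1, a potassium channel gene, at chr7:143180837-143181046, stood at 64.5 and 77.1 in DN1 and at 5.43 and 11.6 in DN2a (difference -62.3, SE 8.13, adjusted p = 0.00477), and it was as low in IgG (5.56, 3.53 and 19.3). Calls at these sites depend on the libraries compared. Without DN1 replicate 1, DN1 replicate 2 or DN2a replicate 2 the Nedd9 call was lost (limma, adjusted p up to 0.0845), as was the Maf call without any 1 of the 4 libraries compared (up to 0.140) and the Kcnq1 call without DN1 replicate 2 (0.0596). PU.1 patterns were in 21.2% (13.1% to 32.5%) of the sites that fell and in 9.61% of those not called.

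From DN2a to DN2b, the step at which T cells commit, 0 sites rose and 2 fell (0.0434%, where 0% of all DHSs rose and 0.0153% fell). At an unadjusted p under 0.05 there were 474. The first lies 18.03 kb upstream of Ifnar2, an interferon receptor gene, at chr16:91354657-91354846, and holds a RUNX pattern. It had 77.7 and 58.6 in DN2a and 16.0 and 12.6 in DN2b, a difference of -53.8 (SE 7.49, adjusted p = 0.0223), and LSK, DN1 and IgG libraries ranked it between 77.7 and 91.9. The other is in an intron of Prkar2b, a regulatory subunit gene of protein kinase A (chr12:31996957-31997146), with 87.1 and 86.3 in DN2a and 46.7 and 49.8 in DN2b (difference -38.4, SE 6.03, adjusted p = 0.0488). Both calls are fragile to single libraries. The Ifnar2 site kept its call only without DN2a replicate 2, DN2b replicate 1, IgG replicate 1 or IgG replicate 3, and the Prkar2b site only without IgG replicate 1 (limma, adjusted p up to 0.243 otherwise). With ranks transformed to a normal scale the number called was 58, of which 56 fell. With whole-list ranks it was 0, so both calls were lost, and at equal list lengths it was 3.

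Over the whole path from LSK to DN2b, 371 sites rose (8.05%, where 6.24% of all DHSs rose) and 515 fell (11.2%, where 6.15% of all fell). The 886 calls became 393 without DN2b replicate 1 and 401 without DN2b replicate 2, and whole-list ranks gave 123 rises and 112 falls, so the excess of falls depends on the ranking. Upstream of Agbl5, at chr5:30887377-30887586, percentiles were 8.49, 19.3 and 13.3 in LSK, 63.0 and 58.7 in DN1, 83.7 and 74.98 in DN2a and 92.0 and 90.7 in DN2b. The rise was 77.6 points (SE 7.84, adjusted p = 5.87e-05), and all IgG values (70.2, 63.8 and 81.9) were above LSK as well. The site in a Gfod1 intron (chr13:43250717-43250986) had 1.15, 5.33 and 4.18 in LSK, 44.1, 67.5 and 37.6 in IgG, 74.7 to 91.7 in DN1 and DN2a, and 79.4 and 81.6 in DN2b (difference 76.9, SE 8.92, adjusted p = 9.68e-05). At both sites LSK was the lowest group, with no overlap. A site 72.4 kb from the start of the cytokine gene Lif (chr11:4339337-4339566) was near 0 in LSK (1.15, 0.272 and 0.620) and low in IgG (10.7, 1.13 and 3.57). It reached 66.8 and 81.6 in DN2b (difference 73.5, SE 8.09, adjusted p = 6.69e-05). Another, 58.4 kb upstream of the homeobox gene Cux1 (chr5:136625737-136625946), had 20.6, 10.7 and 6.0 in LSK, 23.4, 13.01 and 14.7 in IgG and 89.4 and 88.0 in DN2b (difference 76.3, SE 8.97, adjusted p = 0.000102). These last 2 sites were low in LSK and IgG alike.

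Falls over the same path were as large. At the Bcas3 intron site (chr11:85713537-85713726) percentiles were 84.0, 87.1 and 86.8 in LSK, 68.8 and 79.2 in DN1, 34.4 and 19.999 in DN2a and 7.25 and 6.79 in DN2b. The difference from LSK to DN2b was -79.0 (SE 7.27, adjusted p = 2.42e-05), and in IgG the site stayed at 89.9, 90.9 and 89.96. A site in a coding exon of Spen, whose protein is a corepressor of RBPJ, the DNA-binding partner of Notch, had 89.6, 91.2 and 80.5 in LSK and 0.788 and 17 in DN2b (chr4:141477717-141477946, difference -78.2, SE 8.12, adjusted p = 5.87e-05). A site in a Tnfrsf17 intron, in the gene of the B lineage receptor BCMA (chr16:11317457-11317646), went from 71.5, 76.3 and 74.2 to 0.360 and 0.689 (difference -73.5, SE 9.47, adjusted p = 0.000170). The CTCF pattern was in 5.39% of the sites that rose, 12.04% of those that fell and 22.9% of those not called.

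**Figure D4:**
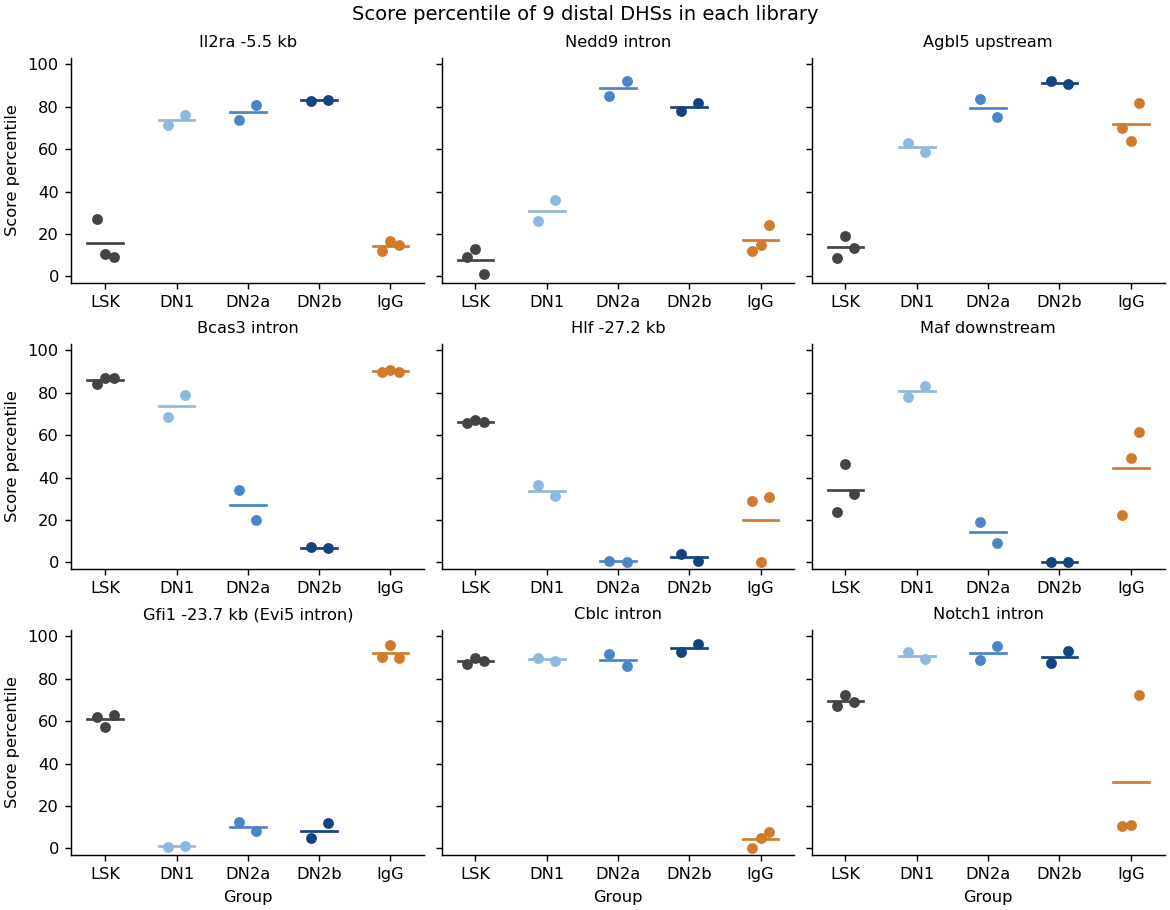
Score percentile (0 to 100) of 9 distal DHSs in each of the 12 libraries (points) with group means (lines), for LSK, DN1, DN2a, DN2b and IgG. At the Il2ra site all 6 Delta1-cultured libraries lie above 70 and all LSK and IgG libraries below 30, while the Cblc site is below 10 only in IgG.

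The next comparison is with culture without Notch ligand. From LSK to IgG, 874 sites rose (18.97%, where 12.9% of all DHSs rose) and 722 fell (15.7%, where 13.7% fell). Ranked within the whole lists, which are shortest in IgG, 2302 sites were called and 9.60% of them rose, against 54.8% here. The highest rise was at chr18:36708897-36709146, 13.1 kb upstream of E230025N22Rik and within 50 kb of Cd14, the lipopolysaccharide coreceptor gene of monocytes. It had 8.49, 7.78 and 13.3 in LSK and 98.8, 99.5 and 99.7 in IgG (difference 89.5, SE 5.88, adjusted p = 1.33e-07), and the 6 Delta1-cultured libraries lay between 1.68 and 15.2. A site 147 kb upstream of Vcan, a proteoglycan gene, inside an intron of the repair gene Xrcc4 (chr13:89889157-89889366), rose from 4.33, 6.07 and 1.55 to 86.4, 96.1 and 95.9 (difference 88.8, SE 7.84, adjusted p = 1.69e-06). Near Cd300a, an inhibitory receptor gene of myeloid cells (chr11:114907677-114907906), values of 11.5, 19.3 and 10.1 became 95.5, 94.0 and 91.4 (difference 80.0, SE 6.94, adjusted p = 1.36e-06). AP-1 patterns were found in 16.6% (14.3% to 19.2%) of sites that rose, 9.42% of those that fell and 11.2% of those not called.

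Other sites were high in every group but IgG. In an intron of Cblc, a gene of the CBL ubiquitin ligase family (chr7:19789997-19790306), percentiles were 87.0, 89.7 and 88.6 in LSK and 0.394, 4.78 and 7.92 in IgG, a difference of -84.1 (SE 5.40, adjusted p = 1.33e-07). Its Delta1-cultured libraries stood between 86.3 and 96.6. The site 107 kb upstream of Nabp1 (chr1:51584977-51585266) had 91.9, 94.0 and 93.9 in LSK and 9.44, 13.01 and 22.7 in IgG (difference -78.2, SE 4.66, adjusted p = 9.21e-08), and 91.7 to 99.8 in Delta1 culture. A site 81.3 kb upstream of Rgs1, a regulator of G protein signalling in lymphocytes (chr1:144330457-144330706), fell from 82.9, 91.2 and 90.3 to 9.44, 18.9 and 22.7 (difference -71.1, SE 6.05, adjusted p = 1.12e-06). IgG replicate 3 did not always go with the other two. At a site 29.4 kb upstream of Aff3 (chr1:38694197-38694566) the IgG values were 1.48, 6.19 and 53.3, against 86.01, 94.0 and 96.2 in LSK (difference -71.7, SE 9.36, adjusted p = 5.27e-05).

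Set against IgG, DN1 was higher at 784 sites (17.01%, where 13.8% of all DHSs were higher) and lower at 820 (17.8%, where 13.1% were lower). DN1 cells were sorted and no sort is described for the IgG cells, so ligand and cell composition cannot be told apart. This comparison shares its libraries with those above, and sites that lost their peak in IgG are again left out. With whole-list ranks 2504 were higher and 104 lower, and without DN1 replicate 1 or 2 the 1604 calls became 989 or 868. The largest difference was 23.7 kb upstream of Gfi1, a zinc finger repressor gene, in an intron of Evi5 (chr5:107749637-107749906). It had 90.5, 95.8 and 89.96 in IgG and 0.769 and 1.35 in DN1 (difference -91.0, SE 7.35, adjusted p = 1.27e-06). LSK stood between them at 62.0, 57.4 and 63.1, so the site rose in IgG (31.2 points, SE 6.57, adjusted p = 0.00252) and fell in DN1 (difference -59.8, SE 7.35, adjusted p = 0.000270). A site 5.50 kb from the start of Id1, whose protein inhibits E proteins, had 94.2, 95.1 and 98.4 in IgG and 6.08 and 6.85 in DN1 (chr2:152741537-152741966, difference -89.4, SE 7.76, adjusted p = 2.67e-06). In an intron of Crem, a cAMP response gene (chr18:3270617-3270946), IgG had 1.02, 4.78 and 1.89 and DN1 89.9 and 90.8 (difference 87.8, SE 8.37, adjusted p = 5.02e-06).

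Sites within 50 kb of the starts of listed genes were then counted. These counts are read against the 4608 sites, of which 18.97% rose and 15.7% fell from LSK to IgG, and 17.01% were higher and 17.8% lower in DN1 than in IgG (12.9%, 13.7%, 13.8% and 13.1% of all 13068 DHSs). The myeloid list of 20 genes had 28 sites. Of these, 10 rose and 0 fell from LSK to IgG (median difference 9.15 points, against 0.613 over all 4608 sites), and from IgG to DN1 2 were higher and 10 lower. Of the 10 that rose, 6 stood on chr1:171033837-171111606 between the Fc receptor gene Fcgr4 and Cfap126, each within 250 bp of a tRNA gene. Another 2 were near Cd14, 1 near Gfi1 and 1 near Mpo. Of all 87 sites near tRNA genes 49 rose, and most of those rises were lost with whole-list ranks, as given further on. The count of 10 thus rests mainly on sites near tRNA genes, and a rise of the list without them was not tested. The list of 20 stem and progenitor (HSPC) genes had 16 sites, of which 1 rose and 8 fell from LSK to IgG (median difference -18.8 points), where 18.97% and 15.7% of the 4608 did. The Hlf site, 27.2 kb upstream of this bZIP factor gene (chr11:90418017-90418206), had 66.0, 67.3 and 66.1 in LSK, 36.5 and 31.1 in DN1, 0.784 and 0.161 in DN2a and 4.17 and 0.761 in DN2b. It fell by 64.0 points from LSK to DN2b (SE 8.11, adjusted p = 0.000152) and by 46.3 to IgG (SE 7.25, adjusted p = 0.000238), where it had 29.0, 0.367 and 31.0. At Flt3, a cytokine receptor gene (chr5:147363177-147363366), 42.4, 41.7 and 54.4 in LSK compared with 0.654, 3.53 and 21.03 in IgG (difference -37.8, SE 7.70, adjusted p = 0.00203). The rise was beside Ier2, an immediate early gene within 50 kb of Lyl1 (chr8:84661597-84661806), from 13.8, 4.15 and 14.4 to 81.7, 81.7 and 71.2 (difference 67.4, SE 6.34, adjusted p = 3.27e-06).

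From LSK to DN1, 2 of the 16 HSPC sites rose and 2 fell, and of the 28 myeloid sites 2 rose and 3 fell, where 8.92% of the 4608 rose and 5.99% fell. The site 48.1 kb upstream of Runx1, a transcription factor gene of blood stem and T cells (chr16:92874137-92874306), had 12.6, 19.3 and 4.79 in LSK, 64.5 and 50.01 in DN1, 28.6 and 17.5 in DN2a and 3.05 and 2.34 in DN2b. DN1 was the highest group, with no overlap, and the rise from LSK was 45.04 points (SE 7.80, adjusted p = 0.00205). At Lmo2, a cofactor gene of the stem cell factor SCL, the site 12.9 kb upstream (chr2:103945017-103945206) had 60.2 and 68.5 in DN1 and 6.75, 18.9 and 13.3 in IgG (difference 51.4, SE 7.69, adjusted p = 0.000201), with LSK at 30.1, 41.7 and 30.8. From the myeloid list, a site near Slc7a10 and within 50 kb of Cebpa, a granulocyte factor gene (chr7:35156577-35156866), went from 28.6, 32.4 and 22 in LSK to 63.0 and 71.2 in DN1 (difference 39.4, SE 7.33, adjusted p = 0.00314, and 0.0586 without DN1 replicate 2). It stood at 4.17 and 4.33 in DN2b, the lowest of the groups. The other rises to DN1 were at Lmo2 (30.1 points, adjusted p = 0.0203) and at the Rapsn site near Spi1 (30.9 points, adjusted p = 0.00796). Of the falls, that at Gfi1 is given above. Near Csf2ra, a cytokine receptor gene, the site at chr19:61224357-61224566 fell from 28.6, 41.7 and 30.8 in LSK to 7.91 and 1.68 in DN1 (difference -28.9, SE 6.19, adjusted p = 0.00764). A further site within 50 kb of Csf2ra (nearest Gm6020) differed by -8.45 (adjusted p = 0.0322), the Hlf site by -32.7 (adjusted p = 0.0175), and the site near Gtf3c5 and within 50 kb of Gfi1b by -18.6 (adjusted p = 0.0365). The calls at Lmo2, Rapsn, Gm6020, Hlf and Gtf3c5 were lost without either DN1 library, those at Lmo2 and Gtf3c5 also without LSK replicate 1 or 3, that at Gm6020 without any LSK library and that at Gtf3c5 without either DN2b library, and the Csf2ra call was lost without DN1 replicate 2 (limma, adjusted p up to 0.253).

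The T lineage list of 20 genes had only 7 sites, near 9 of its genes. Besides Il2ra, DN1 was above IgG at Gata3, a T cell transcription factor gene, 1.10 kb from its start (chr2:9879597-9879806), with 67.3 and 61.5 against 46.5, 29.0 and 29.4 (difference 29.4, SE 9.51, adjusted p = 0.0304). The list's remaining called site, in an intron of Lck, a kinase gene of T cell receptor signalling (chr4:129556517-129556706), was called only from LSK to IgG. It had 49.9, 47.98 and 46.4 in LSK, 23.6 and 24.5 in DN1, 12.2 and 16.3 in DN2a, 31.9 and 37.3 in DN2b and 34.8, 6.19 and 29.4 in IgG. LSK was the highest group, with no overlap, and the difference from LSK to IgG was -24.6 (SE 7.08, adjusted p = 0.0168, and 0.0880 without IgG replicate 2). Near Cd3e 1 site was found, 1.36 kb upstream of Ube4a, and it was called in no comparison. Rag1 and Bcl11b had none within 50 kb. Of the 21 sites of the Notch pathway list, 0 changed from LSK to DN1 or to DN2b, 2 rose and 3 fell from LSK to IgG, and in DN1 3 were higher and 4 lower than in IgG. The counts against IgG are near the shares over the 4608 sites given above, and from LSK 14.9% of the 4608 were called to DN1 and 19.2% to DN2b. In an intron of Notch1 (chr2:26513397-26513646) percentiles were 67.3, 72.4 and 68.9 in LSK, 87.6 to 95.6 in Delta1 culture and 10.7, 11.1 and 72.2 in IgG. The difference from LSK to IgG was -38.2 (SE 11.2, adjusted p = 0.0190), and it rests on 2 of 3 IgG libraries. The Notch1 call was lost without LSK replicate 2, IgG replicate 1 or IgG replicate 2 (limma, adjusted p up to 0.0940), and the Gata3 call without DN1 replicate 1, DN1 replicate 2, IgG replicate 2 or IgG replicate 3 (up to 0.172). At Rbpj (chr5:53588537-53588746) values were higher in IgG, with 53.8, 68.7 and 62.6 against 30.1, 35.3 and 20.7 in LSK (difference 33.01, SE 8.33, adjusted p = 0.00806). Near Hes1, a direct Notch target, the site 40.5 kb upstream was lower in DN1, at 1.20 and 7.68, than in IgG, at 24.8, 25 and 68.2 (difference -34.9, SE 10.4, adjusted p = 0.0200), a call lost without either DN1 library (up to 0.141).

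Among 4 sites near mast cell and basophil genes, 1 rose from LSK to IgG, where 18.97% of the 4608 sites rose, so the count says nothing about the list. It lies in an intron of Srgn, the gene of the granule proteoglycan serglycin (chr10:62506297-62506506), and had 19.03, 29.3 and 22 in LSK and 77.9, 80.0 and 61.3 in IgG (difference 49.6, SE 8.39, adjusted p = 0.000482). Of 7 sites near cohesin and CTCF genes, 2 rose from LSK to DN2b, where 8.05% of the 4608 sites and 6.24% of all DHSs rose. The site 13.9 kb upstream of Ctcf itself, in an intron of Agrp (chr8:105622517-105622746), holds the CTCF pattern and had 64.7, 60.4 and 61.7 in LSK and 95.9 and 92.0 in DN2b (difference 31.7, SE 6.96, adjusted p = 0.00655, and 0.0852 without DN2b replicate 1). Near the myeloid and B cell factor gene Spi1 (PU.1), a site in Rapsn (chr2:91042717-91042906) had 58.9, 54.4 and 40.2 in LSK, 45.3, 55.6 and 52.0 in IgG and 93.5 and 93.2 in DN2b, a rise from LSK of 42.2 points (SE 6.69, adjusted p = 0.000710).

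Of the 87 sites near tRNA genes, 49 rose and 1 fell from LSK to IgG, where 18.97% of all 4608 sites rose and 15.7% fell. In DN1, 0 of the 87 were higher and 42 lower than in IgG, where 17.01% and 17.8% of the 4608 were. The rest of the 87 did not pass the test. Their median percentile was 23.5, 27.8 and 33.96 in the LSK libraries, between 25.8 and 38.3 in the Delta1-cultured ones and 50.3, 66.2 and 46.7 in IgG. Each IgG library was above every other library, while the median over all 4608 sites was 30.4, 37.1 and 35.9 in the same IgG libraries. From LSK to DN1, 2 rose and 4 fell. Leaving out single libraries gave 30 to 53 rises, with 30 without LSK replicate 1, 32 without LSK replicate 2 and 30 without IgG replicate 2. In the whole lists, which are shortest in IgG, the same sites had median percentiles of 73.4, 76.0 and 81.6 in LSK and 76.9, 83.3 and 74.5 in IgG, and 2 rose. Their gain in IgG is thus relative to other DHSs open in all libraries. The tRNA genes have near-identical copies, and the part of read placement in this result was not tested.

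**Figure D5:**
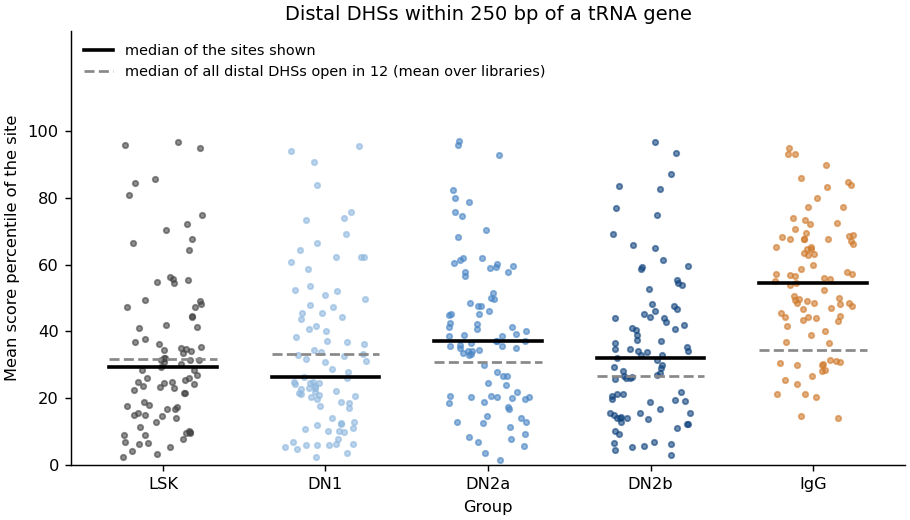
Mean score percentile (0 to 100) of each of the 87 distal DHSs within 250 bp of a tRNA gene, by group, with their median (black line) and the median of all 4608 distal DHSs open in 12 libraries (dashed line). In IgG the median of the sites is higher than in the other groups, with 49 of 87 called higher than in LSK and 1 called lower.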

How the data were processed

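DNase-seq was run on 12 libraries, and the submitters' processing notes name BWA 0.7.12, SAMtools 1.2 and mm10. The authors called peaks with hotspot2 (FDR 0.05), which the paper describes as done for each developmental stage, and each library has its own deposited list. Each deposited list gives 150 bp peaks with a score, a whole number with no stated meaning. Lists hold no read totals, so depth and its precision are unknown, and 95% Wilson intervals cover counting error only. The paper lists its BWA settings for alignment and mate-pairing. It does not state in words whether reads with several matches were kept or where they were placed. Protein-coding starts came from GENCODE M21 on GRCm38 (the study used an earlier release), sequences from GRCm38.p6, and small RNA genes from RefSeq. Coordinates are mm10 and 1-based.

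The highest score of a site in each library was turned into a mid-rank percentile among the 13068 DHSs open in all 12 libraries. The same sites are thus ranked in every library. Group means were compared with limma 3.58.1 (R 4.3.3, empirical Bayes with trend, two-sided, spread pooled over 5 groups), adjusted by Benjamini-Hochberg over all 13068 DHSs at 0.05, and the procedure was tested on simulated data.

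The members, lists and tests were chosen with earlier results of these data known. Named sites were those with the largest non-overlapping differences per comparison, the highest lowest-library percentile, the most crowded stretches, and called sites within 50 kb of listed genes or of 6 genes the study displayed. Replicate numbers follow deposition order. Alternatives were whole-list ranks, equal list lengths, mean scores, other transforms and merging rules, other promoter windows and start sets, no crowded sites (10 or more others within 50 kb), and each library left out.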

Additional observations from a re-analysis of the deposited data

Results flagged for a closer look

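Outside the chromosomes analysed, the mitochondrial genome, which is not packed in chromatin, held peaks. Of its 29 merged sites, 11 had a peak in all 12 libraries, whereas of 62 on chromosome Y none did (0 sites).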

How the results depend on the processing

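No paired analysis was possible because the labels carry no replicate numbers. The number of distal DHSs open in all 12 libraries was 1909 in the upper 50% of each list, 3058 at equal list lengths, 5492 with 1 start per gene, 3931 with starts of every transcript, and 4606 to 5544 with a library left out. Location changed little, and the CTCF pattern stood at 17.7% at equal list lengths.

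With percentiles within the whole list, which follow list length, 142 sites were called from LSK to DN1 (83.1% higher, main 59.8%), 2 from DN1 to DN2a (0 higher), 0 from DN2a to DN2b (232 at an unadjusted p under 0.05), 235 from LSK to DN2b (52.3% higher, main 41.9%), 2302 from LSK to IgG (9.60% higher, main 54.8%) and 2608 from IgG to DN1 (96.0% higher, main 48.9%). At equal list lengths the counts were 394, 29 (51.7% higher, main 26.7%), 3, 577, 976 and 1012 in the same order, and 1595 for any group. From DN2a to DN2b other settings gave 58 (inverse normal transform), 4 (no trend), 4 (mean score) and 1 (merging at 50 bp).

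Leaving out 1 library gave 205 (without DN1 replicate 2) to 795 sites from LSK to DN1, 289 without DN1 replicate 1, 2 to 142 from DN1 to DN2a, 0 to 11 from DN2a to DN2b, 393 (without DN2b replicate 1) to 1019 from LSK to DN2b, 401 without DN2b replicate 2, 1281 to 1627 from LSK to IgG, 868 (without DN1 replicate 2) to 1712 from IgG to DN1, 989 without DN1 replicate 1, and 2156 to 2568 for any group. A group left with 1 library is assumed to vary like the others. Of 72 differences at named sites, 0 changed sign in any setting that gave them a value (35 at equal list lengths, 71 with merging at 50 bp). With whole-list percentiles 27 of the 72 lost the call and 45 kept it. Adjusted p-values printed at the sites without a named setting are from the main ranking. Among all called sites, whole-list percentiles reversed the sign at 90 of 1596 from LSK to IgG. From IgG to DN1 they reversed it at 238 of 1604, and 0 of the reversed sites were called in the opposite direction. Without the trend in the empirical Bayes step, the Notch1 (LSK to IgG), Hes1 (IgG to DN1) and Gm6020 (LSK to DN1) calls were lost (limma, adjusted p = 0.0556, 0.0527 and 0.232). The causes were not tested. Fewer DHSs enter at equal list lengths. Unknown depth limits what a missing peak means.

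The alternative without sites near tRNA genes, added after seeing the data, left 1546 calls from LSK to IgG and 1562 from IgG to DN1. Leaving out crowded sites kept 4576 sites. From LSK to DN1 the rises then stayed at 411, while the falls went from 276 to 259. From IgG to DN1 the number higher stayed at 784, while the number lower went from 820 to 796.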
